A study of Sus scrofa with 6 samples.

Results

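Pig genes of antioxidant defence, glutathione metabolism and the NRF2 response were followed in subcutaneous fat of a Duroc, Landrace and Yorkshire cross. They were chosen by symbol: 34 genes were listed, 29 of them matched a row of the 22844 rows in the library tables, and all 29 passed the filter on low values, a 6-library mean of 0.5 TPM or more. TPM is a length-scaled abundance that sums to the same total in each library. The symbols FTH1, GPX1, GLRX, GSTP1 and TXN matched no row and were not analysed here. The resveratrol group had 3 libraries from pigs on a diet with 400 mg/kg of this plant polyphenol, and the control group had 3 libraries from pigs on the control diet. The labels give no age, sex or feeding time. They also leave unsaid whether each library stands for its own pig, and p-values here reflect only the scatter among libraries, part or all of which may be technical.

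NRF2, encoded by NFE2L2, is a transcription factor that KEAP1 holds in the cytoplasm and hands to degradation. Oxidants and electrophiles modify cysteines of KEAP1, NRF2 then accumulates in the nucleus and switches on genes that make glutathione, reduce thioredoxin and supply NADPH. Superoxide dismutases turn superoxide into hydrogen peroxide, which catalase, glutathione peroxidases and peroxiredoxins remove. In fat, hydrogen peroxide is also a by-product of fatty acid oxidation and takes part in insulin signalling.

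Libraries held 16251536 (control 2) to 37943877 reads (resveratrol 2). In edgeR's quasi-likelihood fit, 0 of 14908 tested rows (0%) had an adjusted p under 0.05 and 973 (6.53%) an unadjusted p under 0.05; DESeq2 called 40 rows (0.268%). An assembled locus with no gene name, MSTRG.12981, held 22.2% of TPM in resveratrol 1, 25.8% in control 1 and 16.6% to 19.2% in the other 4 libraries, and TPM of the other genes share what remains. Relative to read counts under edgeR's TMM scaling, TPM ran high in control 2: the median gene's ratio of TPM to TMM-scaled count was 1.17 times its mean over the libraries there, against 0.907 to 1.0 times in the other 5. Listed adipocyte markers were abundant, with 11 of 14 matched and a summed level of 23079 to 28690.0 TPM in resveratrol and 19274 to 26008 TPM in control, while 4 matched skeletal muscle markers summed to at most 2.13 TPM. Control 1 stood apart in the summed markers of tendon and cartilage. The 10 matched tendon and cartilage markers summed to 7.52 to 13.9 TPM in resveratrol. In control 1, 2 and 3 they summed to 175, 15.6 and 44.4 TPM. The 9 matched fibroblast markers summed to 4255 to 5952 TPM in resveratrol. Their sum was 8193, 4744 and 5262 TPM in control 1, 2 and 3. Of these, COL1A1 had 3536 TPM in control 1 and 580 to 1871 TPM in the other libraries. DCN, FBLN1, COL6A3 and PI16 were also highest in control 1, but LUM and DPT were lowest there, and COL3A1 was highest in resveratrol 2. Of 8 tendon and cartilage markers tested, 8 had a log2 fold change below 0, 6 of them at an unadjusted p under 0.05 (4.32% of all rows). The difference was not confined to control 1. In TPM the groups of 3 of the 8 did not overlap, with resveratrol below (8.15% of all rows). Of these, COL2A1 had 11.8, 5.08 and 7.26 TPM in control 1, 2 and 3 and 0.936 to 1.08 TPM in resveratrol. The part of this tissue in the antioxidant genes was not tested. Without control 1 the log2 fold change was 0.49 for SOD1, 0.29 for PRDX2, 0.36 for PRDX5, 0.17 for GPX4, 0.14 for MGST1, 0.29 for MGST3, -0.04 for PRDX6 and -0.14 for TALDO1, and the log2 difference of the summed TPM of all members was 0.07; the values with it follow. In bulk tissue, fewer cells of a type and less RNA per cell cannot be told apart.

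The antioxidant genes were a well-expressed group whose levels spanned more than 3 orders of magnitude, and the diet comparison found no member that passed the test. Together they took 0.856%, 0.957% and 1.01% of TPM in resveratrol 1, 2 and 3 and 0.709%, 0.830% and 0.967% in control 1, 2 and 3. The groups overlap in this sum, with control 1 the lowest library and resveratrol 3 the highest (log2 difference 0.18, exact two-sided permutation p = 0.3; with 3 libraries against 3 the smallest possible p is 0.1). MGST1, SOD1 and MGST3 averaged more than 1000 TPM over all libraries and made up 46.2% of the summed level. Of the 29 genes, 6 averaged at least 500 TPM, 13 at least 100 TPM and 25 at least 10 TPM. GSR, GCLC, TXNRD2 and SLC7A11 lay below 10 TPM.

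**Figure D1:**
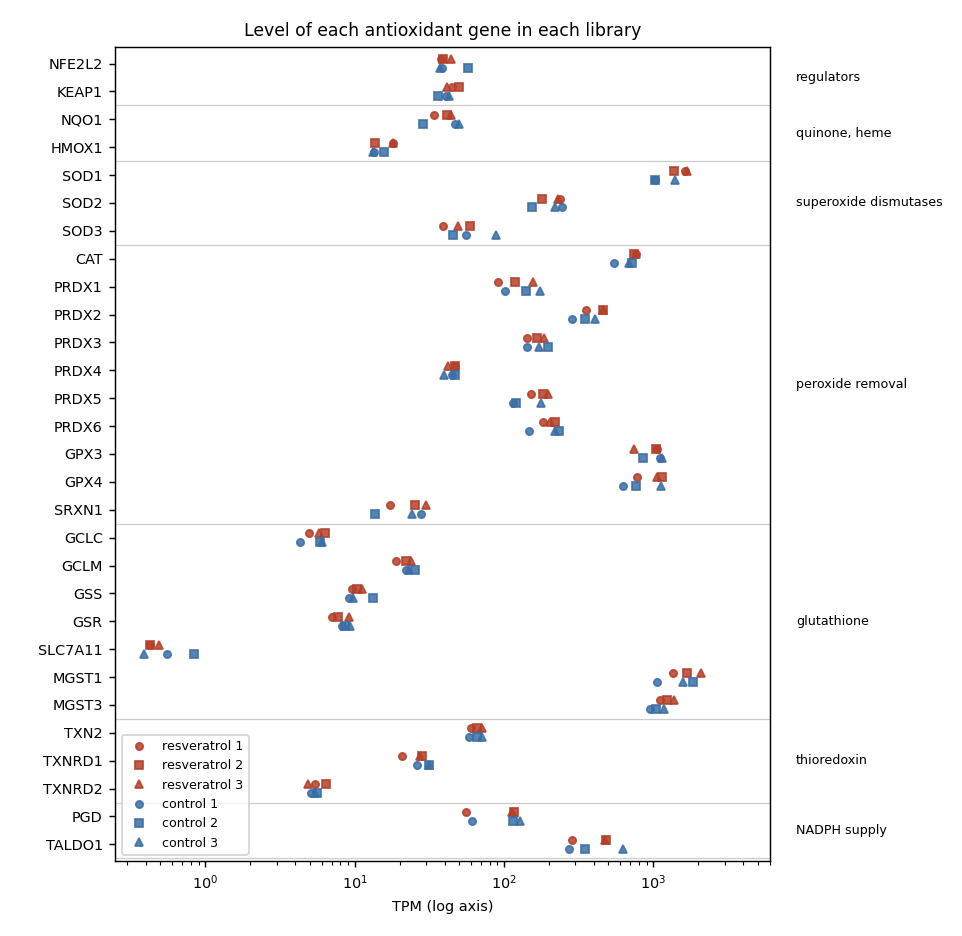
TPM (log axis) of the 29 antioxidant genes in each of the 6 libraries, resveratrol above control within each gene, grouped by role. Levels run from below 1 TPM for SLC7A11 to 2084 TPM for MGST1 in resveratrol 3, and the resveratrol and control points of most genes overlap.

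The diet comparison asked whether resveratrol feeding went with other levels of these genes. In edgeR, 0 of 29 members passed the adjusted threshold (0% of all rows), the smallest adjusted p being 0.733, and 0 had an unadjusted p under 0.05, against 2.21% of all rows higher and 4.32% lower in resveratrol. DESeq2 called 0 members (smallest adjusted p = 0.601) and gave SOD1 alone an unadjusted p under 0.05. The log2 fold change, resveratrol over control, lay above 0 for 20 members (69.0%) and below 0 for 9, with a median of 0.093, beside 48.8% above 0 and a median of -0.008 over all rows. That count was 15 in limma on TPM rescaled without the 2 most abundant assembled loci and 15 without resveratrol 3. It was 18 without control 1 and 26 without resveratrol 1. In the rescaled fit the median log2 fold change was 0.001 for the members and -0.115 over all rows. Without resveratrol 3 those medians were 0.03 and -0.014. Without control 1, 0 members had an unadjusted p under 0.05 in either direction, beside 433 of all 14908 rows higher and 627 lower. In TPM, the groups of 1 member (CAT) did not overlap with resveratrol on top, as for 4.11% of all rows, and those of 0 members with resveratrol below, as for 8.15% of all rows. Fold changes ran from -0.32 (SOD3) to 0.51 (SOD1) on the log2 scale.

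**Figure D2:**
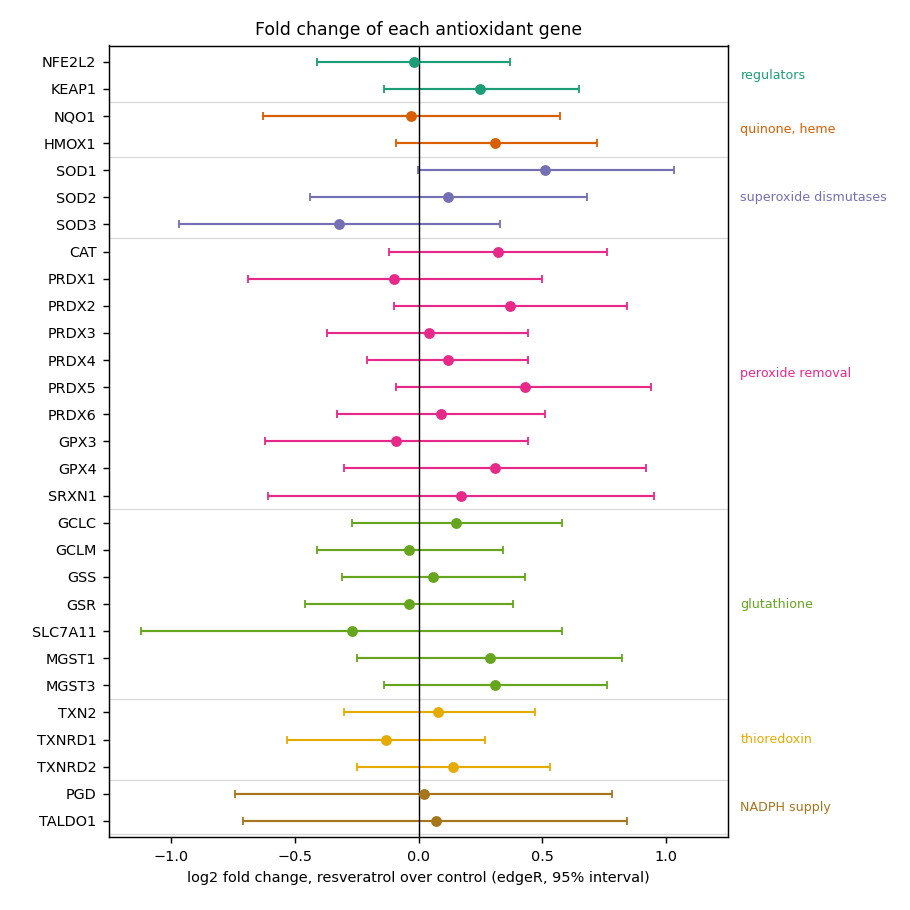
Log2 fold change, resveratrol over control, of each gene in edgeR (point) with its 95% interval (bar), coloured by role. All 29 intervals include 0; SOD1 at 0.51 has the lower bound closest to 0 among the genes above 0, and SLC7A11 has the widest interval.

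The regulators NFE2L2 and KEAP1 were expressed at much the same level, near 42 TPM averaged over the 6 libraries. NFE2L2 had 37.7, 38.8 and 44.1 TPM in resveratrol 1, 2 and 3 and 38.5, 57.1 and 37.1 TPM in control 1, 2 and 3. Control 2 stood above the other libraries in TPM, the scale that ran high in that library. In TMM-scaled counts it did not stand apart, at 144.5 in control 2 and 143.8 in resveratrol 3. The groups overlap in TPM and in TMM-scaled counts (log2 fold change -0.02, SE 0.18, 95% interval -0.41 to 0.37). KEAP1, the adaptor that brings NRF2 to the CUL3 ubiquitin ligase, had 44.5, 49.97 and 41.5 TPM in resveratrol 1, 2 and 3 and 40.9, 36.3 and 42.9 TPM in control 1, 2 and 3. The groups overlap in TPM but not in TMM-scaled counts, and the fold change did not pass (log2 fold change 0.25, SE 0.18, edgeR adjusted p = 0.751). In TMM-scaled counts 2 of 29 members did not overlap with resveratrol on top, beside 845 of all 14908 tested rows. The ratio of KEAP1 to NFE2L2 averaged 1.14 ± 0.178 in resveratrol and 0.951 ± 0.277 in control (SD, n = 3 each; exact permutation p = 0.5).

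The classic NRF2 target NQO1, a quinone reductase, and the heme oxygenase HMOX1 were both expressed, and neither passed the test. NQO1 measured 33.9, 41.2 and 44.0 TPM in resveratrol 1, 2 and 3 and 47.1, 28.7 and 50.2 TPM in control 1, 2 and 3, so that the control libraries held both the lowest and the highest value. Its log2 fold change was -0.03 with a 95% interval of -0.63 to 0.57. HMOX1, which breaks down heme and is abundant in macrophages, had 18.0, 13.8 and 17.9 TPM in resveratrol 1, 2 and 3 and 13.6, 15.7 and 13.3 TPM in control 1, 2 and 3. Resveratrol 1 and 3 were the highest libraries and resveratrol 2 lay within the control range (log2 fold change 0.31, SE 0.18, edgeR adjusted p = 0.734, unadjusted p = 0.117). All 14 listed macrophage markers had a higher mean in resveratrol, and their summed level ran from 843 to 1273 TPM in resveratrol and from 693 to 804 TPM in control. The part of these cells in the HMOX1 values was not tested. Without resveratrol 2 the unadjusted p of HMOX1 was 0.0439, and without each other library it was 0.152 to 0.338.

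Among the superoxide dismutases the cytosolic copper-zinc enzyme SOD1 was by far the most abundant. SOD1 (ENSSSCG00000021355.2) had 1639.7, 1376 and 1691 TPM in resveratrol 1, 2 and 3 and 1028, 1018 and 1392 TPM in control 1, 2 and 3. Resveratrol 1 and 3 stood above all control libraries, and control 3 lay just above resveratrol 2, so the groups overlap by that single pair. The means were 1569 ± 169 TPM in resveratrol and 1146 ± 213 TPM in control (SD, n = 3 each). The log2 fold change was 0.51 (SE 0.23, 95% interval -0.00046 to 1.03), with an unadjusted p of 0.0502 and an edgeR adjusted p of 0.733. The unadjusted p was 0.00924 without control 3 and 0.164 without resveratrol 3, and the log2 fold change ranged from 0.35 (without control 2) to 0.74 (without control 3). SOD1 passed the adjusted threshold in none of the 16 alternatives.

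The mitochondrial manganese enzyme SOD2 had 238, 180.2 and 231 TPM in resveratrol 1, 2 and 3 and 243, 155 and 221 TPM in control 1, 2 and 3. Replicate 2 was the lowest library of each group, and the log2 fold change of 0.12 (SE 0.25) became -0.12 without control 2. SOD3, the dismutase secreted into the extracellular matrix, had 38.8, 59.3 and 48.9 TPM in resveratrol 1, 2 and 3 and 56.0, 45.4 and 87.9 TPM in control 1, 2 and 3. Its lowest fold change of the set, -0.32 (SE 0.29), rested on control 3, since it was 0.06 without that library. SOD1 was thus 6.88, 7.64 and 7.33 times as abundant as SOD2 in resveratrol 1, 2 and 3 and 4.23, 6.57 and 6.31 times in control 1, 2 and 3. The groups do not overlap in this ratio, nor in that of SOD1 to SOD3, which averaged 33.4 ± 9.60 in resveratrol and 18.9 ± 3.33 in control (SD, n = 3 each). Without control 1 the log2 difference of the SOD1 to SOD2 ratio was 0.18, against 0.38 with it. Both ratios had the smallest exact permutation p that 3 against 3 allows, 0.1, and an adjusted p of 0.520 over the 26 sums, ratios and shares computed.

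Catalase, the peroxisomal enzyme that breaks hydrogen peroxide down to water and oxygen, was even in TPM across the resveratrol libraries. CAT (ENSSSCG00000013302.3) had 763, 745 and 759.8 TPM in resveratrol 1, 2 and 3 and 544, 714 and 685 TPM in control 1, 2 and 3. Every resveratrol library stood above every control library, and control 1 lay well below the rest. The log2 fold change was 0.32 (SE 0.20, edgeR adjusted p = 0.742, unadjusted p = 0.139). Without control 1, the library rich in tendon and cartilage markers, it was 0.25 (unadjusted p = 0.301). Red blood cells also hold much catalase and PRDX2; their 6 matched markers summed to 1036, 1201 and 1215 TPM in resveratrol 1, 2 and 3 and 1113, 1008 and 779 TPM in control 1, 2 and 3. The hemoglobin gene HBB made up most of that sum, with 1025 to 1199 TPM in resveratrol and 769 to 1099.6 TPM in control, and their part in the values of CAT and PRDX2 was not tested.

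The peroxiredoxins, thiol peroxidases that hand electrons from thioredoxin to peroxide, were led by the cytosolic PRDX2. PRDX2 had 356, 459.8 and 462 TPM in resveratrol 1, 2 and 3 and 284, 347 and 407 TPM in control 1, 2 and 3 (log2 fold change 0.37, SE 0.21, unadjusted p = 0.107, edgeR adjusted p = 0.733). Control 3 lay above resveratrol 1, so the groups overlap. PRDX5, found in mitochondria, peroxisomes and cytosol, had 152, 182 and 196 TPM in resveratrol 1, 2 and 3 and 115, 119 and 176 TPM in control 1, 2 and 3 (log2 fold change 0.43, SE 0.23, unadjusted p = 0.0936, edgeR adjusted p = 0.733). Here too control 3 alone reached into the resveratrol range. Without control 3 the unadjusted p was 0.0238 for PRDX2 and 0.00604 for PRDX5, and without resveratrol 3 it was 0.303 and 0.286.

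The other peroxiredoxins lay closer to no difference. PRDX1 averaged 122 ± 32.4 TPM in resveratrol and 139 ± 36.0 TPM in control, the mitochondrial PRDX3 164 ± 21.6 and 171 ± 26.4 TPM, the endoplasmic reticulum enzyme PRDX4 45.3 ± 2.75 and 44.0 ± 3.92 TPM, and PRDX6, which uses glutathione, 201 ± 19.4 and 199.97 ± 45.6 TPM in resveratrol and control (SD, n = 3 each). Their log2 fold changes were -0.10, 0.04, 0.12 and 0.09, with standard errors of 0.27, 0.18, 0.15 and 0.19. PRDX4 was the steadiest gene of the whole set, its highest library being 1.19 times its lowest.

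As shares of summed peroxiredoxin TPM, which do not depend on library scaling, PRDX2 took 36.7%, 38.6% and 37.2% in resveratrol 1, 2 and 3 and 33.9%, 32.1% and 34.3% in control 1, 2 and 3. PRDX5 took 15.7%, 15.3% and 15.8% in resveratrol 1, 2 and 3 and 13.8%, 11.0% and 14.8% in control 1, 2 and 3. Neither share overlapped between the groups, with resveratrol on top. PRDX1 took 9.41%, 9.91% and 12.5% in resveratrol 1, 2 and 3 and 12.2%, 13.0% and 14.6% in control 1, 2 and 3, overlapping by resveratrol 3. The exact permutation p was 0.1 for PRDX2 and PRDX5 and 0.2 for PRDX1 (adjusted p = 0.520, 0.520 and 0.709 over the 26 quantities). The ratio of PRDX2 to PRDX1 was 3.90, 3.89 and 2.97 in resveratrol 1, 2 and 3 and 2.79, 2.46 and 2.34 in control 1, 2 and 3, again without overlap (exact permutation p = 0.1, adjusted p = 0.520). Leaving out any 1 library kept its log2 difference between 0.43 and 0.63.

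**Figure D3:**
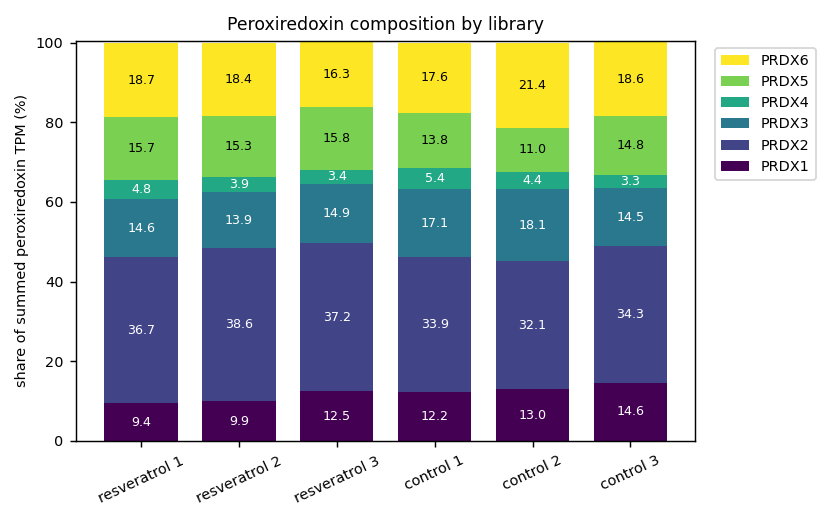
Share of summed peroxiredoxin TPM (%) taken by each of the 6 peroxiredoxins in each library, resveratrol on the left. PRDX2 is the largest part in every library, at 36.7% to 38.6% in resveratrol and 32.1% to 34.3% in control.

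Of the glutathione peroxidases, the secreted GPX3 and the lipid hydroperoxide reductase GPX4, both selenoproteins, were of like abundance. GPX3 had 1052, 1039.9 and 740.4 TPM in resveratrol 1, 2 and 3 and 1108, 847 and 1144 TPM in control 1, 2 and 3. Resveratrol 3 was its lowest library (log2 fold change -0.09, SE 0.24). GPX4, the enzyme that guards membranes against ferroptosis, had 772, 1149.6 and 1063 TPM in resveratrol 1, 2 and 3 and 623, 765 and 1125 TPM in control 1, 2 and 3. Its libraries spread widely within each group, and the log2 fold change of 0.31 (SE 0.27, unadjusted p = 0.283) had an unadjusted p of 0.0211 without control 3 and 0.141 to 0.590 without each other library. SRXN1, the sulfiredoxin that repairs overoxidized peroxiredoxins, averaged 24.1 ± 6.38 TPM in resveratrol and 21.8 ± 7.22 TPM in control (SD, n = 3 each). It rested on 59 to 324 reads per library.

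In the peroxide arm as a whole, 8 of 10 tested genes had a log2 fold change above 0, with a median of 0.146. Over all 29 members 69.0% lay above 0, and over all rows 48.8%. The summed TPM of the arm gave no such order. The summed level of the 10 genes was 3575, 4152 and 3837 TPM in resveratrol 1, 2 and 3 and 3140.4, 3423 and 4167 TPM in control 1, 2 and 3, and the control libraries held both ends of the range (exact permutation p = 0.5).

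**Figure D4:**
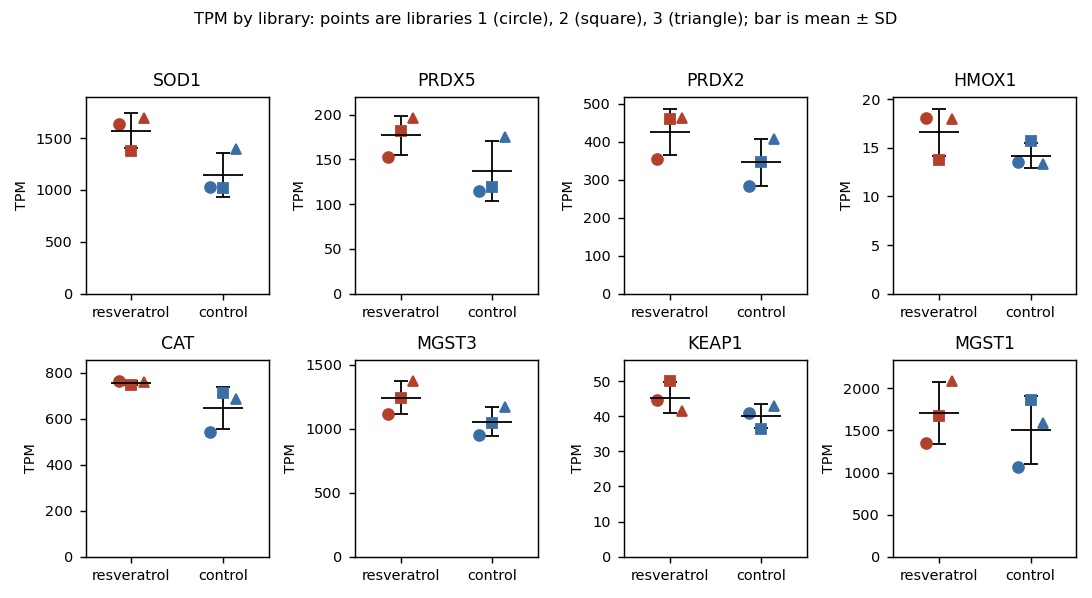
TPM in each library for 8 genes, those of smallest unadjusted edgeR p, resveratrol left of control; symbols mark replicate 1, 2 and 3, and bars the mean ± SD of 3 libraries. CAT is the only panel without overlap, at 745 to 763 TPM in resveratrol against 544 to 714 TPM in control.

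Enzymes that make and recycle glutathione were low, while the transferases MGST1 and MGST3 each averaged more than 1000 TPM. GCLC and GCLM form glutamate-cysteine ligase, the rate-limiting step of glutathione synthesis. The catalytic subunit GCLC averaged 5.68 ± 0.692 TPM in resveratrol and 5.42 ± 0.983 TPM in control, and the modifier subunit GCLM 21.5 ± 2.55 and 23.5 ± 1.79 TPM (SD, n = 3 each). The modifier transcript thus exceeded the catalytic one 3.48 to 4.13 times in resveratrol and 3.78 to 5.14 times in control libraries (exact permutation p = 0.3). Glutathione synthetase GSS averaged 10.4 ± 0.862 and 10.8 ± 2.17 TPM, and glutathione reductase GSR, which uses NADPH, 7.99 ± 1.08 and 8.75 ± 0.519 TPM in resveratrol and control. The log2 fold changes of these 4 genes lay between -0.04 and 0.15, and their 95% intervals lay within -0.46 (GSR) and 0.58 (GCLC).

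SLC7A11, the cystine importer that feeds glutathione synthesis and a sensitive NRF2 target, was barely expressed. It had 0.426, 0.424 and 0.491 TPM in resveratrol 1, 2 and 3 and 0.550, 0.838 and 0.389 TPM in control 1, 2 and 3. These values rest on 28 to 42 reads per library, and the log2 fold change of -0.27 (SE 0.38) has a 95% interval of -1.12 to 0.58. Its partner chain SLC3A2 is described with the other genes of the pathway.

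The microsomal glutathione transferases MGST1 and MGST3 were, with SOD1, the most abundant of the set. MGST1 had 1355, 1675 and 2084 TPM in resveratrol 1, 2 and 3 and 1064, 1856 and 1584 TPM in control 1, 2 and 3 (log2 fold change 0.29, SE 0.24, unadjusted p = 0.259). MGST3 had 1112, 1240.2 and 1369.9 TPM in resveratrol 1, 2 and 3 and 951, 1043 and 1170.2 TPM in control 1, 2 and 3 (log2 fold change 0.31, SE 0.20, unadjusted p = 0.159). The groups overlap in both, and neither passed (edgeR adjusted p = 0.779 and 0.745). In TMM-scaled counts control 2 was the lowest library for MGST3, while in TPM control 1 was the lowest for both genes. The summed TPM of the 11 matched adipocyte markers was also lowest in control 1 and highest in resveratrol 3. FABP4, a fatty acid carrier, made up most of that sum, with 14487 to 19979 TPM in resveratrol and 11828 to 17852 TPM in control; PLIN4 was highest in control 1, so the single markers do not share this order. The part of adipocyte content in the MGST values was not tested.

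In the thioredoxin arm, TXN2 and TXNRD2 had like means on both diets. Mitochondrial thioredoxin TXN2 averaged 65.4 ± 5.52 TPM in resveratrol and 65.0 ± 6.50 TPM in control, and its reductase TXNRD2 5.56 ± 0.798 and 5.38 ± 0.249 TPM (SD, n = 3 each). TXNRD1, the cytosolic reductase and an NRF2 target, had 20.7, 28.1 and 27.3 TPM in resveratrol 1, 2 and 3 and 26.0, 31.6 and 31.2 TPM in control 1, 2 and 3. It averaged 25.4 ± 4.04 TPM in resveratrol and 29.6 ± 3.14 TPM in control (SD, n = 3 each). Resveratrol 1 was its lowest library (log2 fold change -0.13, SE 0.18, 0.02 without resveratrol 1). The summed level of the 3 genes was 96.3 ± 9.13 TPM in resveratrol and 100.01 ± 9.68 TPM in control (exact permutation p = 0.5). Across arms, 5 members found in mitochondria (SOD2, PRDX3, PRDX5, TXN2 and TXNRD2) summed to 598, 599 and 687 TPM in resveratrol 1, 2 and 3. In control 1, 2 and 3 they summed to 565, 543 and 644 TPM. PRDX5, which is also found in peroxisomes and cytosol, was counted in full.

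The NADPH arm varied more between libraries of 1 group than between the diets. PGD, the second NADPH-producing enzyme of the pentose phosphate pathway, had 55.8, 116 and 113 TPM in resveratrol 1, 2 and 3 and 61.0, 115 and 127 TPM in control 1, 2 and 3. TALDO1, the transaldolase of its non-oxidative branch, had 285, 479.8 and 472 TPM in resveratrol 1, 2 and 3 and 273, 350.2 and 622 TPM in control 1, 2 and 3. In each gene the replicate 1 libraries of both groups were the lowest, and the highest library was 2.28 times the lowest. The log2 fold changes were 0.02 (SE 0.34) for PGD and 0.07 (SE 0.35) for TALDO1, among the widest errors in the set.

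Counting over all 29 members, resveratrol 1 and control 1 held the lowest 2 TPM values in 10 genes, among them PRDX1, MGST1 and TXNRD1 beside PGD and TALDO1. Over all tested rows that was so for 7.63%, and on TMM-scaled counts it was 9 members and 6.35% of all rows. The pair was chosen after the values were seen, so this is a description with no test. Of the other NADPH genes, ME1, the cytosolic malic enzyme, had 69.5, 137 and 169.9 TPM in resveratrol 1, 2 and 3 and 71.6, 364 and 213 TPM in control 1, 2 and 3. The scaling matters for which library looks lowest: control 1 was the lowest library for 11 members by TPM and for 6 by TMM-scaled counts, and control 2 for 5 members by TPM and for 15 by TMM-scaled counts.

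**Figure D5:**
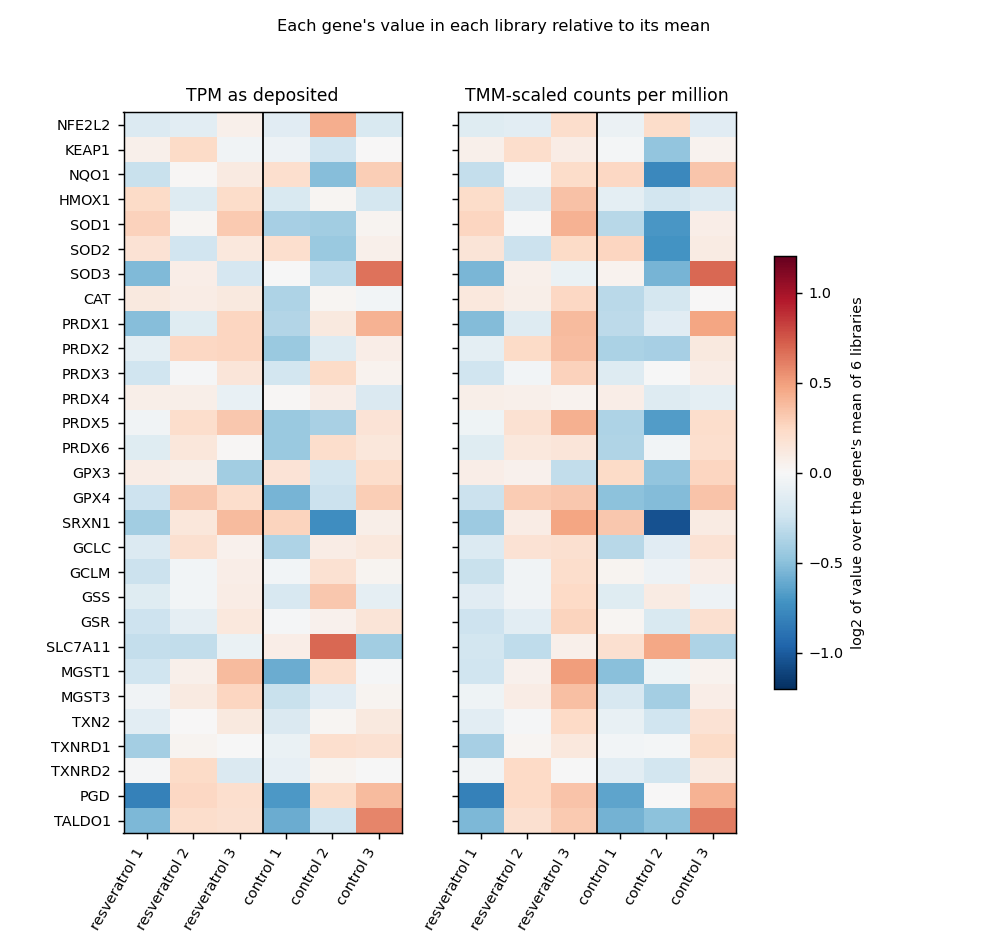
Log2 of each gene's value over its own mean of the 6 libraries, from deposited TPM (left panel) and TMM-scaled counts (right panel), resveratrol left of control within each panel. PGD and TALDO1 are low in replicate 1 of both groups on both scales, while control 2 is the lowest library for 5 members by TPM and 15 by TMM-scaled counts.

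Other genes of the pathway were taken from 7 further lists, of which 89 genes were tested. In edgeR 0 passed the adjusted threshold, 3 were higher at an unadjusted p under 0.05 (2.21% of all rows) and 0 were lower (4.32% of all rows), and the median log2 fold change was 0.125, beside -0.008 over all rows. The 3 were HMOX2, the constitutive heme oxygenase, GSTZ1, a transferase of tyrosine breakdown, and SLC3A2, the chain that carries SLC7A11 and other amino acid transporters to the membrane. HMOX2 averaged 51.3 ± 5.46 TPM in resveratrol and 37.3 ± 4.04 TPM in control, GSTZ1 42.8 ± 3.39 and 33.9 ± 0.728 TPM, and SLC3A2 112 ± 3.02 and 85.6 ± 11.1 TPM (SD, n = 3 each). Their log2 fold changes were 0.53 (SE 0.19), 0.40 (SE 0.15) and 0.47 (SE 0.20), with unadjusted p of 0.0199, 0.0251 and 0.0436, and none passed the adjusted threshold in edgeR. The groups do not overlap in these 3 genes. Over the 89 genes, TPM did not overlap with resveratrol on top in 6 (4.11% of all rows) and with resveratrol below in 4 (8.15% of all rows). Those below were GSTM3, SESN2, SESN3 and DPP3, of which SESN3 and DPP3 are named after their values were seen. SESN3, a stress-induced sestrin, had 33.6, 31.2 and 30.8 TPM in resveratrol 1, 2 and 3 and 36.7, 44.3 and 40.2 TPM in control 1, 2 and 3. In TMM-scaled counts the groups of SESN2 and DPP3 overlap, and those of GSTM3 and SESN3 do not. On that scale 6 of the 89 genes did not overlap with resveratrol on top and 2 with it below. Over all 14908 tested rows those counts were 845 and 1039.

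Among 11 tested regulators and partners of NRF2, 0 reached an unadjusted p under 0.05. SQSTM1, the autophagy receptor that sequesters KEAP1, had 342, 333 and 330.2 TPM in resveratrol 1, 2 and 3 and 256, 192 and 298 TPM in control 1, 2 and 3, without overlap (log2 fold change 0.50, SE 0.24, unadjusted p = 0.0652). RBX1, a subunit of the CUL3 ligase, GSK3B, a kinase that marks NRF2 for degradation, and the small Maf protein MAFF, from the family that pairs with NRF2 on DNA, had log2 fold changes of 0.16, -0.20 and -0.25. Of 18 further target and detoxifying genes, ESD and ABCC1, a transporter of glutathione conjugates, had log2 fold changes of 0.36 and -0.33, and biliverdin reductase BLVRA one of -0.21.

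Of 12 other transferases and peroxidases, GSTA4, which conjugates the lipid aldehyde 4-hydroxynonenal, and GSTM3 differed by 0.59 (SE 0.30) and -0.87 (SE 0.41) on the log2 scale, and the prostaglandin E synthase PTGES by -0.03. The GSTM3 values rest on 21 to 61 reads per library. In the 11 genes of glutathione turnover, LANCL1, CHAC1, which cleaves glutathione, and GGT5 had log2 fold changes of 0.29, -0.30 and -0.22. In the 16 genes of the thioredoxin fold and repair list, CCS, the copper chaperone that loads SOD1, had 42.4, 40.0 and 39.7 TPM in resveratrol 1, 2 and 3 and 30.9, 29.4 and 39.3 TPM in control 1, 2 and 3. The groups of CCS do not overlap in TPM but overlap in TMM-scaled counts, control 3 being the control library nearest to the resveratrol range as it was for SOD1 (log2 fold change 0.36, SE 0.19, unadjusted p = 0.0911). GLRX3, NXN and SESN2 had log2 fold changes of 0.16, -0.58 and -0.50. In the 15 other NADPH genes, IDH1, MTHFD1, ME1 and ME3 had log2 fold changes of 0.23, 0.19, -0.62 (SE 0.54) and -0.21. Of the enzymes that produce oxidants, 6 were tested and 6 had a log2 fold change above 0, though 0 at an unadjusted p under 0.05. That direction was also held by 68.5% of the 89 genes and 48.8% of all rows. CYBA, a membrane subunit of the phagocyte NADPH oxidase, had a log2 fold change of 0.48 (SE 0.22). The 14 macrophage markers given above had higher means in resveratrol as well, and their part in the CYBA value was not tested.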

How the data were processed

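The authors deposited, per the file headers, 1 table per library with whole-number read counts and TPM values for 22844 rows. Of these, 14750 matched a symbol in a table of pig Ensembl identifiers. The submitters' processing notes name Bowtie 0.12.2 and 2 mouse genome builds, mm8 and mm9, while the rows carry pig identifiers. No label or header names the pig build, the annotation, the counting program or the strand setting. Reads of close paralogs, processed pseudogenes and overlapping genes therefore cannot be assigned with certainty, and no coordinates or sequences are printed. Groups and replicate numbers came from the sample titles.

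Rows averaging 0.5 TPM or more were tested with edgeR 4.0.16 (TMM, robust quasi-likelihood, R 4.3.3), and p-values were adjusted by Benjamini-Hochberg over all 14908 rows. The SE is the log2 fold change divided by the square root of F, and 95% intervals use the t distribution with edgeR's total degrees of freedom. The script was tested on simulated data. Sums, ratios and shares of TPM were compared by exact two-sided permutation of the libraries. DESeq2 1.42.0 and limma 3.58.1 were alternatives. The members and lists were chosen with earlier results of these data known. Members are described in full, and up to 2 genes per direction of each further list are named by smallest unadjusted p with a mean of at least 1 TPM; a gene this rule selects may be not reported here.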

Additional observations from a re-analysis of the deposited data

How the results depend on the processing

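No member passed the adjusted threshold in edgeR, DESeq2 or limma under any of the 16 alternatives, 1 of which (TPM rescaled without the 2 most abundant assembled loci) was chosen after seeing the data. That rescaling put the median log2 fold change of all rows at -0.115, against -0.008 in edgeR. The direction held under all 16 for 13 members (KEAP1, HMOX1, SOD1, CAT, PRDX2, PRDX4, PRDX5, GPX4, GCLC, SLC7A11, MGST1, MGST3 and TXNRD2, with SLC7A11 below the filter in the alternative of at least 1 TPM) and turned in at least 1 for the other 16; the causes were not tested. The fewest reads per library were those of SLC7A11 (28 to 42) among the members.

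Over all rows, calls numbered 40 in DESeq2 and 0 to 5 with 1 library left out (5 without control 2). Rows higher at an unadjusted p under 0.05 were 605 with library totals alone, 200, 201 and 138 in limma (pseudocounts 0.5 and 1, and rescaled), and 181 (without resveratrol 3) to 640 (without control 3). They were 352 in DESeq2 and 406 of 19984 rows without the filter. Rows lower were 339 with library totals alone and 222 (without resveratrol 3) to 1041 (without control 3). Members higher at that p were 3 with library totals alone, 1 in DESeq2, 1 in each limma fit, 1 without the filter and 0 to 4 with 1 library left out (4 without control 3); members lower were 0 to 1 (SOD3 without control 2). The median of the regulators was 0.032 and 0.031 in limma and -0.005 rescaled.

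The replicate numbers are shared between groups, but the labels do not say that they pair libraries. Deviations of same-numbered libraries correlated at 0.157, 0.0741 and 0.2 over 14908 genes, and each library correlated best with its own number. With the replicate block 3 members (SOD1, PRDX2 and PRDX5) were higher at an unadjusted p under 0.05. Over all 14908 rows that fit had 447 higher and 812 lower at that p, against 329 and 644 without the block. With the block the log2 fold changes of NQO1, PGD and PTGES were 0.03, -0.01 and 0.03.

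With library totals alone the log2 fold changes of NFE2L2, NQO1, GPX3, GCLM, GSR and PTGES were 0.02, 0.06, 0.01, 0.02, 0.03 and 0.07. In limma with pseudocounts 0.5 and 1 and rescaled they were -0.05, -0.05 and -0.09 for PRDX3, -0.04, -0.04 and -0.07 for GSS and -0.09, -0.09 and -0.13 for PGD; rescaled, they were -0.01 for PRDX6 and -0.03 for TXN2. With 1 library left out they ranged from -0.13 to 0.10 for NFE2L2, -0.31 to 0.15 for NQO1, -0.12 to 0.31 for SOD2, -0.57 to 0.06 for SOD3, -0.36 to 0.17 for PRDX1, -0.10 to 0.16 for PRDX3, -0.04 to 0.23 for PRDX6, -0.29 to 0.03 for GPX3, -0.13 to 0.43 for SRXN1, -0.16 to 0.07 for GCLM, -0.05 to 0.14 for GSS, -0.20 to 0.07 for GSR, -0.02 to 0.20 for TXN2, -0.23 to 0.02 for TXNRD1, -0.22 to 0.30 for PGD, -0.14 to 0.56 for TALDO1, -0.32 to 0.01 for GSK3B, -0.37 to 0.03 for BLVRA, -0.31 to 0.24 for PTGES and -0.41 to 0.08 for ME3.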
